A study of Mus musculus with 6 samples.

Results

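A set of 10 genes of the ErbB receptor system was followed in mouse liver: the 4 receptors Egfr, Erbb2, Erbb3 and Erbb4, the 5 ligands Hbegf, Areg, Btc, Nrg1 and Nrg4, and the receptor inhibitor Lrig1. They were found among the 24501 genes in the deposited table by gene symbol, and were chosen by their normalised counts in Control against Gata4LKO columns, above all the low Erbb4 counts. Differences between the groups for these genes are therefore given as a description, and nothing rests on whether they pass a threshold. Liver RNA came from 6 male C57BL/6J mice that all carried floxed Gata4 alleles (Gata4fl/fl), 3 in each of 2 groups. The Gata4LKO group received AAV8-Tbg-Cre, an adeno-associated virus of serotype 8 with Cre recombinase driven by the hepatocyte promoter Tbg. The Control group received the same serotype without Cre (Empty AAV8). Per the labels, mice were injected at the age of 8 weeks and were 11 weeks old at collection, after 3 weeks of Western diet and 6 hours without food. A further label gives 7 days between injection and collection, which differs from those ages.

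ErbB receptors are receptor tyrosine kinases that pair with each other once a ligand of the EGF family binds. Egfr binds EGF, transforming growth factor alpha, amphiregulin (Areg), Hbegf and betacellulin (Btc). Erbb3 and Erbb4 bind the neuregulin Nrg1, and Erbb4 also binds Nrg4, Btc and Hbegf. Erbb2 has no known ligand of its own and Erbb3 has little kinase activity, so both act mainly as partners. Lrig1 is a membrane protein that promotes receptor degradation. In mouse liver Egfr is the best known member, as a driver of regeneration.

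The libraries held 33274223 to 37390345 reads. Gata4 had 867, 848 and 895 normalised reads in the libraries labelled Gata4LKO, against 704, 637 and 546 in Control. Reads over the whole gene were thus higher, without overlap, under the Gata4LKO label. The log2 fold change of Gata4 was 0.47 (SE 0.10), without a call. Which exons are floxed is not stated, and each direction below rests on the labels. All 10 hepatocyte markers looked for were abundant, the least of them at a mean of 12828 normalised reads. They summed to 2518114 to 2954495 in Gata4LKO and to 3347404 to 4343178 in Control, mostly from Alb. Of the 10, 9 had negative log2 fold changes, 5 stood lower without overlap and 1, Serpina1a, was called lower, while Apob had 0.24 without a call. Of 45 markers of other cell types with enough reads, 40 had positive log2 fold changes, 28 stood higher without overlap and 2 lower, beside 15.0% and 13.4% of all tested genes. Of these 45, 5 endothelial markers were called higher and 0 of any list lower, beside 1.13% and 0.932% of all tested genes. Endothelial markers summed to 9301 to 11355 in Gata4LKO and 5922 to 7149 in Control, with 9 of 9 higher without overlap. Macrophage markers summed to 8218 to 17607 in Gata4LKO and 3038 to 7072 in Control, and stellate cell markers to 10637 to 12876 in Gata4LKO and 3957 to 9336 in Control, with 7 of 9 higher without overlap in each list. Lymphocyte markers summed to 208 to 275 in Gata4LKO and 103 to 221 in Control, and neutrophil markers to 93.4 to 107 in Gata4LKO and 30.8 to 83.1 in Control. Bile duct markers overlapped, at 1493 to 2182 in Gata4LKO and 1786 to 2135 in Control. Adipocyte markers summed to 248 to 500.2 in Gata4LKO and 131 to 173 in Control, while the defining marker Adipoq reached at most 3 reads in any library. In bulk RNA, fewer cells of a type and less RNA per cell cannot be told apart.

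Erbb4 was the member that differed most. It had 28.6, 57.2 and 42.5 normalised reads in the libraries labelled Gata4LKO, against 144, 255 and 145 in Control. The highest Gata4LKO library lay below the lowest Control library, and Control replicate 2 stood above the other Control libraries. The means were 42.8 ± 14.3 in Gata4LKO and 181 ± 63.6 in Control (SD, n = 3 each), a ratio of 0.236. On the log2(value + 1) scale the log2 fold change was -2.06 (SE 0.32). It ranked 47 from the lowest among the 14385 genes with a mean of at least 10 normalised reads. The authors' deposited table gives -2.08 with a standard error of 0.33. The low Gata4LKO values rest on 28, 57 and 45 whole reads, so counting error alone is 18.9% of the lowest library's value.

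Erbb4 was the 1 member called lower among the 9 tested, and 0 were called higher (limma across all genes, Benjamini-Hochberg adjusted p under 0.05). Over all genes 2.06% were called, 0.932% lower and 1.13% higher, and nothing is read from the members' count, since the contrast chose them. At an unadjusted p under 0.05 limma counted 2 members lower and 0 higher, beside 9.32% and 13.1% of all genes. On the recovered reads edgeR and DESeq2 also called 1 lower and 0 higher, beside 0.848% and 1.13% of all genes with edgeR and 3.51% and 5.97% with DESeq2. The log2 fold change of Erbb4 was negative in all 17 alternative settings, and the call held in 11 of them. Both counts are a description only, since the settings reuse the libraries by which Erbb4 was chosen. The call was lost without Gata4LKO replicate 1 (log2 fold change -1.80), Gata4LKO replicate 3 (-2.08), Control replicate 1 (-2.19) or Control replicate 3 (-2.19), and without the variance trend. With a score of the 45 markers of other liver cells as a covariate its log2 fold change was -2.99, also without a call. That score itself separated the groups, at 0.49 to 0.60 in Gata4LKO and -0.92 to -0.07 in Control. The fit thus cannot tell cell composition and group apart, and the part of composition in the difference was not tested.

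**Figure D1:**
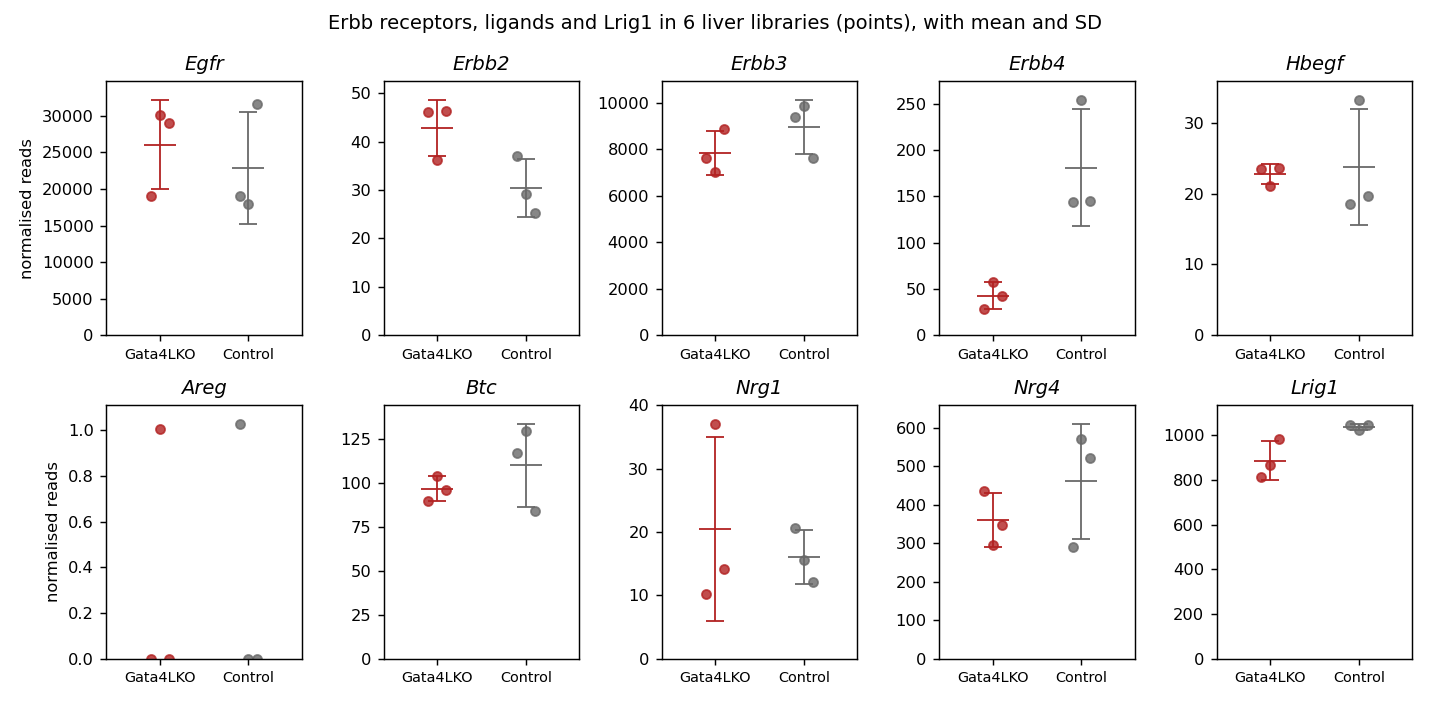
Normalised reads (vertical axis, linear from 0) of the 10 genes in Gata4LKO (left, red) and Control (right, grey) libraries, with points for libraries and bars for mean and SD (points only for Areg, which had at most 1 read a library). Erbb4 at 28.6 to 57.2 in Gata4LKO against 144 to 255 in Control and Lrig1 at 812 to 982 in Gata4LKO against 1021 to 1046 in Control are the genes whose groups do not overlap.

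**Figure D2:**
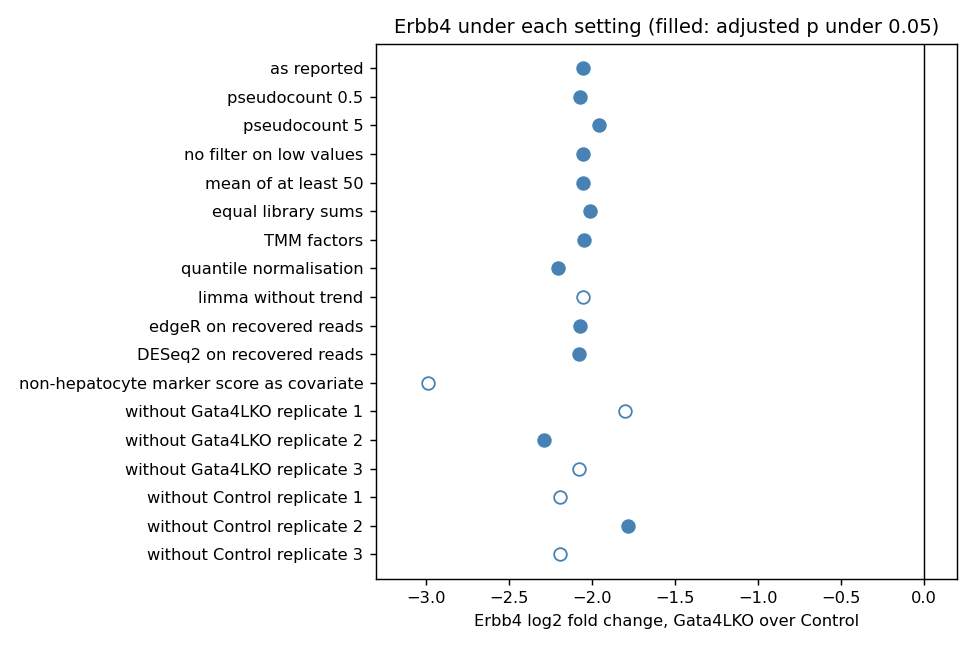
Log2 fold change of Erbb4, Gata4LKO over Control (horizontal axis), as reported and under each of 17 alternative settings (rows), filled where the adjusted p was under 0.05. All values lie between -2.99 and -1.79, and 6 of the 17 alternatives lack the call.

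Erbb4 (ENSMUSG00000062209) lies on chromosome 1, 68032186 to 69108059, minus strand (mm10). It spans 1075874 bases and shares no exonic base with another annotated gene. Since the design targets a GATA factor, windows from 250 bases before to 50 after the transcription start (RefSeq, GRCm38.p6) were searched on both strands for the hexamers AGATAA or AGATAG, or the same with T as their first letter. A window was found for 7 of the 10 members, and 1 of the 7, that of Nrg4, held a match. Over all 32851 windows of this length 29.8% held at least 1. The Erbb4 window (chr1:69108010-69108309, minus strand) is shown because Erbb4 differed most, and the Nrg4 window (chr9:55283576-55283875, minus strand) because of its match. The Nrg4 window lies inside the gene as GENCODE annotates it (55220222 to 55326844, with 13 transcripts), so it surrounds an internal start and not the outermost one. Capitals mark the hexamer, and a match is not evidence of binding. The Erbb4 window has 17 CpG sites and a GC content of 55.3%, against medians of 7 and 52.7% over all windows. Of all windows 68.6% had fewer CpG sites.
Erbb4: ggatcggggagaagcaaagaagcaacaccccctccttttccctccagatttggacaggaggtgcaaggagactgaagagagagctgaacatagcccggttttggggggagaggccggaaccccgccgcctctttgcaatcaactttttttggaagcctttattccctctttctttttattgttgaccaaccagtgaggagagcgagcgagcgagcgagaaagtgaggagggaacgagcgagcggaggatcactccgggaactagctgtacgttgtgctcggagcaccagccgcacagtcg
Nrg4: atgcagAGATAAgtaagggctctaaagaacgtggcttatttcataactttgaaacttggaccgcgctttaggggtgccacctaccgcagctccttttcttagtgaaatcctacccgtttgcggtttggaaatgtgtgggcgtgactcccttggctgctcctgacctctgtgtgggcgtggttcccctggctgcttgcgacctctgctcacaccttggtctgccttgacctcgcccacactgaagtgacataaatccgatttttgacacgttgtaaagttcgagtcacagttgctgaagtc

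The other receptors differed less. Egfr had 19021, 30140 and 29048 normalised reads in Gata4LKO libraries, against 19063, 17885 and 31677 in Control. Gata4LKO replicates 2 and 3 and Control replicate 3 were high and the other 3 libraries low, so the spread ran across both groups. The means were 26070 ± 6128 in Gata4LKO and 22875 ± 7645 in Control (SD, n = 3), with a log2 fold change of 0.21 (SE 0.26). Counting error was at most 0.762% per library, while the highest library stood 1.77 times above the lowest. The within-group SD of Egfr, 0.41 on the log2 scale, was larger than that of 82.1% of tested genes.

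Erbb3 had 7630, 7034 and 8872 normalised reads in Gata4LKO libraries, against 9383, 9851 and 7628 in Control. The groups overlapped, with Control replicate 3 among the Gata4LKO values. Its log2 fold change was -0.19 (SE 0.12). Erbb2 had 46.0, 36.1 and 46.3 normalised reads in Gata4LKO libraries, against 37.0, 29.1 and 25.2 in Control. The overlap of Erbb2 was narrow, between Gata4LKO replicate 2 and Control replicate 1, and its log2 fold change was 0.49 (SE 0.24). Its libraries held 27 to 49 reads each, so counting error was up to 19.2%.

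Levels of different genes were compared as normalised reads per kb of annotated exon. Egfr averaged 2302 ± 541 per kb in Gata4LKO and 2020 ± 675 in Control, and Erbb3 1304 ± 156 in Gata4LKO and 1488 ± 195 in Control (SD, n = 3). The libraries of this leading pair overlapped in Control but not in Gata4LKO, and with the longest transcript as the length they overlapped in neither group (1863 to 2953 for Egfr against 1169 to 1475 for Erbb3 in Gata4LKO, and 1752 to 3103 against 1268 to 1637 in Control). Erbb4 averaged 3.46 ± 1.16 per kb in Gata4LKO and 14.7 ± 5.15 in Control, and Erbb2 8.22 ± 1.11 in Gata4LKO and 5.84 ± 1.16 in Control. The order of the low pair thus differed between the groups. This is a description only, since the set was chosen with the low Erbb4 counts in Gata4LKO known. Erbb2 also rests on only 27 to 49 reads a library. In Gata4LKO every library had less Erbb4 than Erbb2 (2.32 to 4.63 against 6.94 to 8.88 per kb), and in Control every library had more (11.7 to 20.6 against 4.84 to 7.11). With the longest transcript as the length, this order was unaltered in each group (2.38 to 4.75 against 7.21 to 9.24 in Gata4LKO, and 12.0 to 21.1 against 5.03 to 7.39 in Control).

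As a share of the 4 receptors' summed level per kb, Egfr and Erbb3 made up nearly all. Egfr took 63.1% ± 6.26 in Gata4LKO and 56.3% ± 10.7 in Control, and Erbb3 36.6% ± 6.22 in Gata4LKO and 43.1% ± 10.5 in Control (SD, n = 3). Both overlapped between the groups. Erbb4 took 0.0783%, 0.121% and 0.0849% in the Gata4LKO libraries, against 0.357%, 0.635% and 0.287% in Control. Erbb2 took 0.181% to 0.299% in Gata4LKO and 0.119% to 0.218% in Control. Reads per gene do not give the amount of receptor protein.

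**Figure D3:**
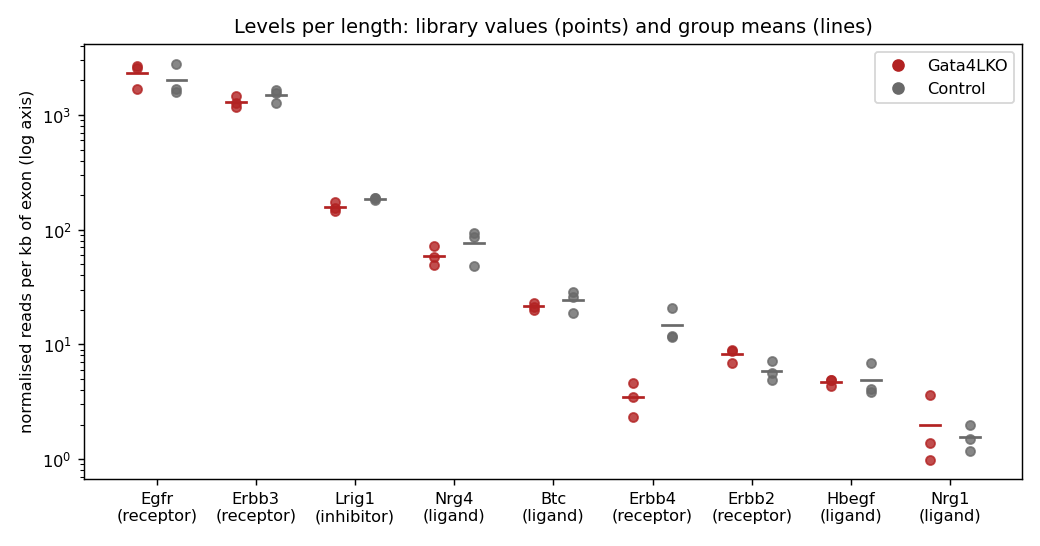
Normalised reads per kb of exon (vertical log axis) for 9 of the genes in order of mean level, in Gata4LKO (red, left of each pair) and Control (grey), with points for libraries and lines for means. Egfr and Erbb3 stand highest in every library, and Erbb4 lies below Erbb2 in Gata4LKO and above it in Control.

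The ligands did not separate between the groups. Nrg4, a neuregulin secreted by brown fat in mice, was the most abundant of the 5 member ligands, with 436, 296 and 349 normalised reads in Gata4LKO libraries, against 290, 571 and 521 in Control. Control replicate 1 was the lowest of all 6 libraries while the other Control libraries were the highest. Its means were 360 ± 70.5 in Gata4LKO and 461 ± 150.0 in Control (SD, n = 3), with a log2 fold change of -0.31 (SE 0.26). Nrg4 shares 368 exonic bases with Fbxo22 on the opposite strand, and since the strand setting of the counting is not given in the sources used here, some of its reads may belong to that gene. Btc had 90.0, 104 and 96.4 normalised reads in Gata4LKO libraries, against 117, 130 and 84.1 in Control. All Gata4LKO values lay within the Control range, and the log2 fold change was -0.17 (SE 0.20).

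Hbegf, the heparin-binding ligand of Egfr and Erbb4, had 23.5, 21.1 and 23.6 normalised reads in Gata4LKO libraries, against 18.5, 33.2 and 19.6 in Control. The 3 Gata4LKO values were close together and lay within the Control range, with a log2 fold change of -0.02 (SE 0.30). Nrg1 had 10.2, 37.1 and 14.2 normalised reads in Gata4LKO libraries, against 20.6, 15.6 and 12.1 in Control. Gata4LKO replicate 2 was the highest of all 6 libraries and the other Gata4LKO values were low or intermediate. Its log2 fold change was 0.16 (SE 0.49), and its within-group SD of 0.70 exceeded that of 94.7% of tested genes. Its libraries held 10 to 37 reads each, so counting error was up to 31.6%. Nrg1 shares 482 exonic bases with Gm26578 on the opposite strand, which had at most 5 reads in any library. The doubt about the strand setting applies here too. Areg was listed at 0, 1 and 0 reads in Gata4LKO and at 1, 0 and 0 in Control. Its mean was under the minimum of 10 normalised reads set for testing, so Areg was not tested. Areg and Btc lie near each other on chromosome 5, at 91139599 to 91148432 and 91357261 to 91402994, and differed in level: 1 read in all per group for Areg, against 294 reads in Gata4LKO and 329 in Control for Btc.

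Lrig1, the receptor inhibitor, had 812, 864 and 982 normalised reads in Gata4LKO libraries, against 1045, 1021 and 1046 in Control. Every Gata4LKO library was lower than every Control library, and the Control libraries differed little from each other, with an SD of 14.1 around 1038. The Gata4LKO mean was 886 ± 87.2 (SD, n = 3). The log2 fold change was -0.23 (SE 0.09), and Lrig1 was not called. Lrig1 and Erbb4 were the 2 of 9 tested members that stood lower without overlap, and 0 stood higher. Over all genes 13.4% stood lower and 15.0% higher without overlap. Lrig1 shares 144 exonic bases with Slc25a26 on the opposite strand, and the same doubt about the strand setting applies.

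Over the 9 tested members the median log2 fold change was -0.17, with 6 negative and 3 positive, against a median of -0.01 over all 14385 genes. The direction was the same in all 17 alternatives for Egfr, Erbb3, Erbb4, Btc, Nrg4 and Lrig1, and in all 16 that kept Erbb2. Hbegf was positive in 3 of 16 alternatives and Nrg1 negative in 2 of 16. These counts are a description only, since the alternatives reuse the libraries by which the members were chosen. Those without the variance trend or with another filter cannot alter a log2 fold change.

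The rest of the pathway was read from 5 lists sorted by role, 80 genes in all, of which 73 were tested. In these lists limma called 1 gene higher and 0 lower, beside 1.13% and 0.932% over all genes. At an unadjusted p under 0.05 limma counted 11 higher and 6 lower, beside 13.1% and 9.32% of all genes. On the same unadjusted threshold edgeR counted 11 higher and 5 lower (13.0% and 8.93% of all genes), and so did DESeq2 (12.4% and 8.37%). By adjusted p edgeR called 1 higher and 0 lower (1.13% and 0.848% of all genes), and DESeq2 4 higher and 2 lower (5.97% and 3.51% of all genes). The median log2 fold change of the 73 genes was 0.01. Without overlap, 13 stood higher and 8 lower, beside 15.0% and 13.4% of all genes.

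Among the other EGF family ligands 2 of 6 were tested and 0 were called. Tgfa, transforming growth factor alpha, had 756, 970 and 880 normalised reads in Gata4LKO libraries, against 833, 698 and 806 in Control, with overlap and a log2 fold change of 0.15 (SE 0.12). Egf had 44.0, 62.2 and 85.0 in Gata4LKO libraries, against 74.1, 61.3 and 56.0 in Control, with a log2 fold change of -0.04 (SE 0.27). Ereg reached at most 8 reads, Nrg2 2 and Epgn 1 in any library.

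Of the genes that cleave or release membrane-bound ligands, 9 of 11 were tested, and the median log2 fold change was 0.18. In this list 1 was called higher and 0 lower, beside 1.13% and 0.932% of all genes. Bace1, a membrane protease that cleaves Nrg1, had 1422, 1524 and 1503 normalised reads in Gata4LKO libraries, against 1046, 941 and 892 in Control. The groups were far apart relative to their spread, with a log2 fold change of 0.63 (SE 0.08, limma adjusted p = 0.0169). Its adjusted p ranged from 7.54e-07 to 0.515 over 17 alternatives and the call held in 12. It was lost without Gata4LKO replicate 2 (0.61), Gata4LKO replicate 3 (0.62) or Control replicate 3 (0.58, log2 fold changes), with the marker score as a covariate (0.60) and without the variance trend (0.63). Adam10, the main sheddase of Btc, stood at a log2 fold change of 0.35, which was not called (limma adjusted p = 0.0593). DESeq2 called Adam10 higher, beside 5.97% of all genes. Adam17, the main sheddase of Areg and Hbegf, had 0.18 and its regulators Rhbdf1 and Rhbdf2 had 0.17 and -0.22, none called.

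Of 14 receptor inhibitors 14 were tested and 0 were called. At an unadjusted p under 0.05 limma, edgeR and DESeq2 each counted 1 higher and 1 lower. Over all genes limma counted 13.1% higher and 9.32% lower. Errfi1, a feedback inhibitor that binds the Egfr kinase domain, had 46547, 37981 and 46373 normalised reads in Gata4LKO libraries, against 47616, 62339 and 56882 in Control. All Gata4LKO values lay below the Control values, by a small margin for Control replicate 1, and the log2 fold change was -0.35 (SE 0.14, limma adjusted p = 0.197). Ptpn1, a tyrosine phosphatase, averaged 1211 ± 98.7 in Gata4LKO and 992 ± 76.3 in Control (SD, n = 3), at 0.29 on the log2 scale (limma adjusted p = 0.129). Lrig2 and Lrig3, the relatives of Lrig1, had 0.01 and -0.18.

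Of 32 adaptors and kinases 32 were tested and 0 were called. At an unadjusted p under 0.05 limma counted 5 higher and 3 lower, beside 13.1% and 9.32% of all genes. The median log2 fold change of this list was -0.02. Grb7, an adaptor that binds ErbB receptors, averaged 2704 ± 112 in Gata4LKO and 3189 ± 80.6 in Control (SD, n = 3), at -0.24 on the log2 scale (limma adjusted p = 0.0903). DESeq2 called Grb7 lower, beside 3.51% of all genes, and edgeR called none of the list. Mtor, a kinase of growth control, averaged 2733 ± 168 in Gata4LKO and 2301 ± 35.0 in Control, with 0.25 (limma adjusted p = 0.0998).

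Of 17 genes that respond to ERK, the kinase downstream of these receptors, 16 were tested and 0 were called. At an unadjusted p under 0.05 limma and edgeR each counted 3 higher and 2 lower. Over all genes limma counted 13.1% higher and 9.32% lower. Myc had 362, 250 and 200 normalised reads in Gata4LKO libraries, against 686, 1056 and 448 in Control. Its groups did not overlap and its log2 fold change was -1.38 (SE 0.33, limma adjusted p = 0.0719), with Control replicate 2 again the highest library. Fitted with the marker score, Myc had -2.97 and was not called. Ccnd1, cyclin D1, had 459, 538 and 542 normalised reads in Gata4LKO libraries, against 281, 385 and 244 in Control. Its log2 fold change was 0.78 (SE 0.17, limma adjusted p = 0.0654), and it was -0.01 with the marker score as a covariate. DESeq2 called Ccnd1 and Spry1 higher and Myc lower, beside 5.97% and 3.51% of all genes. Egr1 had 224, 155 and 206 in Gata4LKO libraries, against 172, 1292 and 79.4 in Control, so that Control replicate 2 alone set its Control mean.

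**Figure D4:**
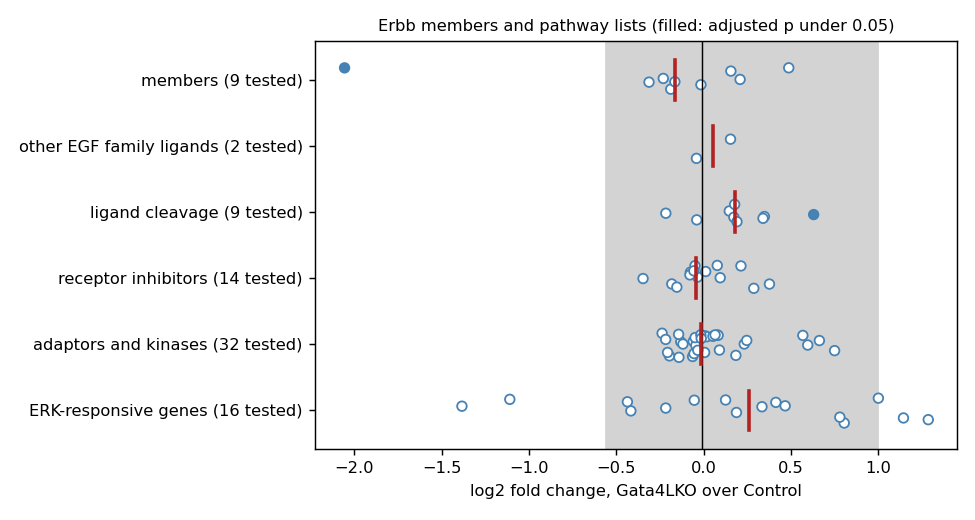
Log2 fold changes, Gata4LKO over Control (horizontal axis), of the tested genes of the ErbB set and of 5 pathway lists (rows), filled where the adjusted p was under 0.05, with red bars for list medians and a grey band for the middle 90% of all tested genes. Erbb4 at -2.06 and Bace1 at 0.63 are the filled points.

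The 5 genes whose profile over the 6 libraries was most like that of Erbb4 were Slc39a2, Trhde, Clec2h, Hsd17b6 and Slc39a4, of 10857 candidates with a mean of at least 50. Likeness was the root mean square difference between log2 deviations from each gene's Control mean, and it was 0.25, 0.35, 0.36, 0.49 and 0.49. Slc39a2, a zinc importer, had 73.6, 144 and 91.6 normalised reads in Gata4LKO libraries, against 370.3, 410.4 and 361 in Control. As for Erbb4, Gata4LKO replicate 2 was the highest of its group and Control replicate 2 the highest of its own. Trhde, a peptidase, had 17.4, 29.1 and 16.1 in Gata4LKO libraries, against 110.1, 126 and 56.0 in Control, with the same highest libraries. Clec2h shared these highest libraries too, while Hsd17b6 was highest in Gata4LKO replicate 3 and Control replicate 2, and Slc39a4 in Gata4LKO replicate 1 and Control replicate 3. All 6 points share the libraries and the scaling, and the measure selects genes of similar size of difference.

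**Figure D5:**
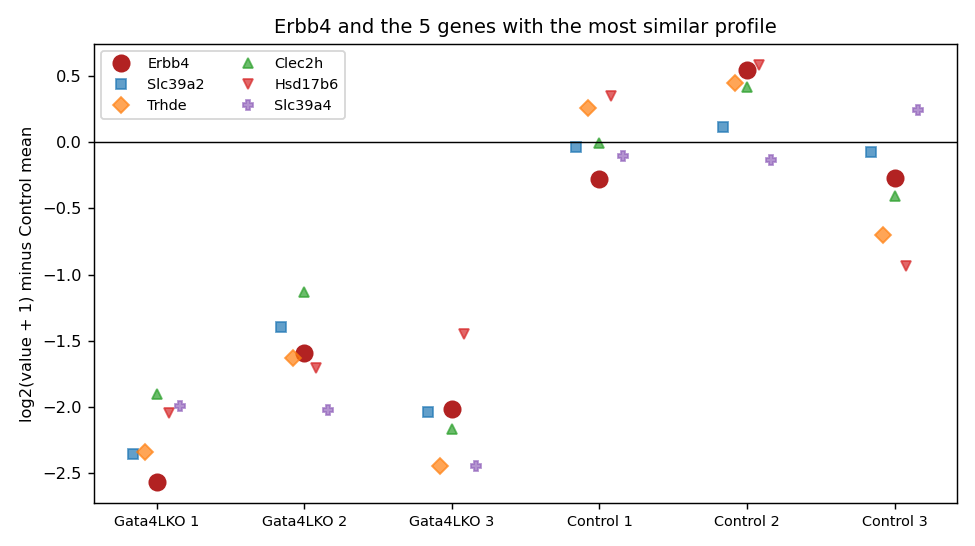
Log2(value + 1) minus the Control mean (vertical axis) in each of the 6 libraries (horizontal axis) for Erbb4 (large circles) and the 5 genes of most similar profile (other symbols). In the Gata4LKO libraries all 6 genes lie well below 0, and in Control they scatter around it.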

How the data were processed

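Per the labels' protocols, mRNA was captured from total RNA of frozen liver for stranded sequencing. Tools named in the submitters' processing notes are STAR 2.6.0c, FastQC and DESeq2, with the build mm10. How reads were counted, with which strand setting and annotation, is not given in the sources used here. The authors deposited, as signal, 1 normalised count for each gene and mouse. In each column 100% of values were whole multiples, within 0.1, of 1 step, which gave whole reads back. The authors' deposited log2 fold changes and standard errors were copied for the members. The authors' deposited p-values were read for their unit and not used.

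Members and lists were chosen with earlier results of these data known. limma 3.58.1 (R 4.3.3) was fitted with a trend to log2(value + 1) for the 14385 genes with a mean of at least 10, two-sided, without covariates, with Benjamini-Hochberg adjustment at 0.05. Fold changes on this scale understate changes of low genes. edgeR 4.0.16 and DESeq2 1.42.0 on recovered reads, other pseudocounts, filters and scalings, and leaving out each library were alternatives. The limma, edgeR and DESeq2 fits without covariates were each tested on simulated data, and the other alternatives were not. Each title has its own animal number. All 15 pairs of libraries differed by more than counting noise (chi-square per degree of freedom of 31.2 or more). Counting errors cover counting only, while SDs and standard errors reflect differences between the libraries of a group.

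Named pathway genes were those called in each list or, with none called, the 2 of smallest p with a mean of at least 50. Others named were chosen after their values were seen: Adam10, Adam17, Rhbdf1, Rhbdf2, Lrig2, Lrig3, Spry1, Egr1, Ereg, Nrg2 and Epgn. Of 80 pathway genes 78 were found by symbol or RefSeq synonym. Nrg3 and Rhbdl2, and among the markers Ly6g, Lep and Ucp1, were not analysed here. Exon lengths are from GENCODE M21, built on mm10.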

Additional observations from a re-analysis of the deposited data

How the results depend on the processing

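Every tested member kept its sign under the alternatives except Hbegf and Nrg1, and 144 of 150 alternative values of the members moved by less than the spread between replicates. The 6 that moved more were all those with the marker score as a covariate, with Egfr at 1.23, Erbb3 at -0.61, Erbb4 at -2.99, Hbegf at -1.04, Btc at -0.84 and Nrg4 at -0.80. Dropping the variance trend or altering the filter on low values cannot change a log2 fold change. Values from those settings equal the main ones by construction, so the count of 144 is a description only. Leaving out single libraries gave log2 fold changes of Erbb4 from -2.29 to -1.79, with 0 to 1 members called lower and 0 higher. The number of members called lower was 0 without the variance trend and 0 with the covariate, against 1. Genes called over the whole table numbered 296, and 458 with equal library sums (71.6% of them higher, against 54.7%), 25 without the trend, 1364 with DESeq2, 4 with the covariate, and 27 (without Gata4LKO replicate 3) to 792 (without Control replicate 2) when single libraries were left out. Pathway genes called higher numbered 1, and 3 with equal sums, 0 without the trend, 4 with DESeq2, 0 with the covariate, and 0 to 4 without single libraries. Pathway genes called lower numbered 0, and 2 with DESeq2 and 1 with the covariate, which was Egr1. Egf turned positive at 0.0047 with equal sums, 0.0091 with edgeR and 0.0050 with DESeq2, at 0.20 without Gata4LKO replicate 1 and 0.07 without Control replicate 1, within a range of -0.27 to 0.20 without single libraries. Ccnd1 turned to -0.0074 with the covariate. The cause of these changes was not tested. No paired analysis was possible because the labels give each mouse its own number and the groups share none. Depth limits Areg most, followed by Nrg1, Hbegf, Erbb2 and the low Erbb4 values.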
